A study of Mus musculus with 2 samples.

Results

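The genes described here are those whose symbols start with Ube2, mostly ubiquitin-conjugating enzymes, and those named Trim followed by a number, mostly RING-type ligases. The rule was applied to the protein-coding genes of the mouse annotation GENCODE vM1 on the mm9 assembly, by symbol alone and without use of any measured value. It found 103 genes among 22228 protein-coding genes, 36 of them Ube2 genes and 67 Trim genes. Chromatin accessibility at these genes was measured by DNase-seq, which marks stretches of chromatin that the nuclease DNase I can cut. A mouse erythroid system was profiled in 2 states, each with 1 sample and 2 peak lists. G1E-ER4 cells carry Gata1, a zinc finger factor required for red cells to mature, in a restored form that responds to estradiol, and they were collected after 24 h of differentiation with 10 nM beta-estradiol. G1E cells are erythroid progenitors that lack Gata1, and they received no treatment. Both lines are listed as male, of strain 129 and of embryonic stem cell origin, and each state is represented by a single line. No untreated G1E-ER4 sample and no estradiol-treated G1E sample was analysed here, so the effects of the line, the restored Gata1, estradiol and the sample cannot be told apart.

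Ubiquitin is passed from an activating enzyme (E1) to a conjugating enzyme (E2) and, with the help of a ligase (E3), onto a target protein, which can mark that protein for destruction by the proteasome. Most Ube2 genes encode E2 enzymes. Most Trim genes encode ligases with a RING, B-box and coiled-coil arrangement, many of which act in antiviral defence, in muscle or in chromatin. Maturing red cells clear much of their proteome by this route. Ube2o marks ribosomal and other proteins for removal in mouse reticulocytes, Ube2h is the E2 of an erythroid ligase complex, Ube2l6 attaches the ubiquitin-like protein Isg15, Trim10 is an erythroid RING protein, and Trim58 marks the motor protein dynein in mouse erythroblasts.

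Each of the 4 lists held 100000 peaks, and the value of a peak was the signal that the authors deposited, a smoothed density of DNase cuts. No scaling between lists is stated and the read depth is unknown, so each signal is given as its percentile within its own list, 100 being the highest. A promoter peak is a peak that overlaps the window within 1 kb of any annotated start, and where several did so the highest percentile was taken. Differences are G1E-ER4 minus G1E. With 1 sample per state no test was possible. The labels do not tie the 2 lists of a sample to different cultures, and their spread may be only technical. Intervals on shares are 95% Wilson intervals and cover the counting of genes alone. G1E-ER4 list 1 stood apart: among the 11673 genes with a promoter peak in every list, it was at least 10 points below all other lists at 12.2% of promoters, against 1.24% for G1E-ER4 list 2, 1.70% for G1E list 1 and 4.60% for G1E list 2. Peaks had a median width of 579 bp (list 1) and 836 bp (list 2) in G1E-ER4, against 520 bp (list 1) and 646 bp (list 2) in G1E. The cells' identity was checked against marker genes. Of 8 erythroid markers, 7 had a promoter peak in all 4 lists and the last, Alas2, had one in G1E-ER4 list 2. Of 8 markers of other blood lineages 2 did, Pax5 and Csf1r, although Mpo had a peak in 3 lists and Elane and Cd4 each in 1. Of 6 markers of tissues outside blood none did, although Myod1 had a peak in 3 lists and Ins2 in 1.

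Promoters whose states did not overlap are described further on, as are sites matched across the 4 lists. The matched sites of members with states at least 10 points apart lay in introns and flanks, outside promoters. Over the genome 457 of 505 such sites with G1E-ER4 higher, and 514 of 534 with it lower, were also outside promoters. Shown here are 200 bases around the summit, the highest point of the peak, at the site with the largest gap between the states for each of the 5 erythroid genes, and at both sites near the cell cycle gene Ube2c. The gap is the distance between the lower value of one state and the higher value of the other, so it differs from 0 only where the states do not overlap, and it carries a minus sign where G1E-ER4 is lower. Sequences are from mm9, 5′ to 3′ in the direction of the gene's transcription. Capitals mark matches to a GATA site, the letters bound by Gata1 and its relatives, searched on both strands as AGATAA, as its variant AGATAG, as the form TGATAA or as the form TGATAG. The sites are Trim58 at chr11:58455192-58455391 on the + strand, in an intron 1.32 kb after the start; Ube2l6 at chr2:84640570-84640769 on the + strand, in an intron 1.69 kb after the start; Ube2h at chr6:30250444-30250643 on the - strand, in an intron 4.0 kb after the start; and Ube2o at chr11:116448168-116448367 on the - strand, at -5.51 kb from the start and 0.52 kb from a start of Aanat. The Trim10 site at chr17:37006318-37006517 on the + strand is its promoter. The Ube2c sites are chr2:164587088-164587287, at -8.21 kb from the start, and chr2:164599571-164599770, in an intron 4.27 kb after the start, both on the + strand.
Trim58 intron: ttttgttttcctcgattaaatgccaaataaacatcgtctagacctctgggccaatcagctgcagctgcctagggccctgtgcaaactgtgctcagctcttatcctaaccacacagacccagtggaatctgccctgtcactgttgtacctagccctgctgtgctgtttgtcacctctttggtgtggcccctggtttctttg
Ube2l6 intron: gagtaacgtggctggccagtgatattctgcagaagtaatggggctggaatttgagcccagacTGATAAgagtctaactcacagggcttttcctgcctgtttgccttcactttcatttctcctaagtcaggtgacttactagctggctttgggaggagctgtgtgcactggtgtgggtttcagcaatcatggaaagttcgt
Ube2h intron: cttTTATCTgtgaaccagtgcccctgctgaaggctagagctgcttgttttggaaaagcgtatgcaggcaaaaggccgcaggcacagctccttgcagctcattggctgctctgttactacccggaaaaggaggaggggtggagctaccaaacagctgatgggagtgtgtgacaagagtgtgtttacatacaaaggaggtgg
Ube2o upstream: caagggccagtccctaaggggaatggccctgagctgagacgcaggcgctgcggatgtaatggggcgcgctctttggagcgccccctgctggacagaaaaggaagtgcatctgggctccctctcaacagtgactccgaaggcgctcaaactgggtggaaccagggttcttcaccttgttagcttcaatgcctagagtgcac
Trim10 promoter: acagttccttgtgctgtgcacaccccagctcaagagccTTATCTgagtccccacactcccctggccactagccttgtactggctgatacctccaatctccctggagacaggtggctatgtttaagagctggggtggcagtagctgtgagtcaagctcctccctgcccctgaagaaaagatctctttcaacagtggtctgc
Ube2c upstream: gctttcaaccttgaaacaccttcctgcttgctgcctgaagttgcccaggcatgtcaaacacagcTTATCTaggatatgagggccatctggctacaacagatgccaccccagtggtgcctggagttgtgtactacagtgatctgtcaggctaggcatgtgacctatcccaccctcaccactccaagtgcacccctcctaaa
Ube2c intron: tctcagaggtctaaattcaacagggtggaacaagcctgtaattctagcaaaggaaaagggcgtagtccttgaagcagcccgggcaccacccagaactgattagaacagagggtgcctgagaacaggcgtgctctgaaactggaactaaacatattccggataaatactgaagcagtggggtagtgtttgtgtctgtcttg
The Ube2l6, Ube2h, Trim10 and upstream Ube2c windows each held 1 GATA match, and these letters are not in the Trim58, Ube2o and Ube2c intron windows.

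Most Ube2 promoters were open in both states, and Trim promoters were open about as often as those of genes at large. Of 36 Ube2 genes, 30 carried promoter peaks in every list (83.3%, 68.1 to 92.1%), and of 67 Trim genes, 33 did (49.3%, 37.7 to 60.9%). These intervals do not overlap. Among all protein-coding genes the share was 52.5%. Ube2 and Trim genes had a median of 3 annotated starts, against 2 for all genes, and so more windows in which a peak could count. With the outermost start alone, 30 Ube2 and 30 Trim genes were open in every list, and the share of all genes under that rule was not compared. No promoter peak in any list was found for 3 Ube2 and 13 Trim genes, 16 of 103 members against 27.2% of all genes. List by list, Ube2 genes had 31 and 33 promoter peaks in G1E-ER4 lists 1 and 2 and 32 and 30 in G1E lists 1 and 2. Trim genes had 36 and 48 in the G1E-ER4 lists, against 46 and 44 in the G1E lists, with G1E-ER4 list 1 lowest. The median percentile of the promoter peaks present was 93.5 and 96.3 in the G1E-ER4 lists, against 94.8 and 95.9 in the G1E lists for Ube2 genes. For Trim genes it was 91.4 and 91.1 in the G1E-ER4 lists, against 92.6 and 92.9 in the G1E lists, and for all genes 89.9 and 92.7 in the G1E-ER4 lists, against 92.1 and 92.8 in the G1E lists. Where a Trim promoter had a peak, it thus ranked near that of other genes. The families parted mainly in how many promoters had a peak in every list, and less in how many had none in any list.

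**Figure D1:**
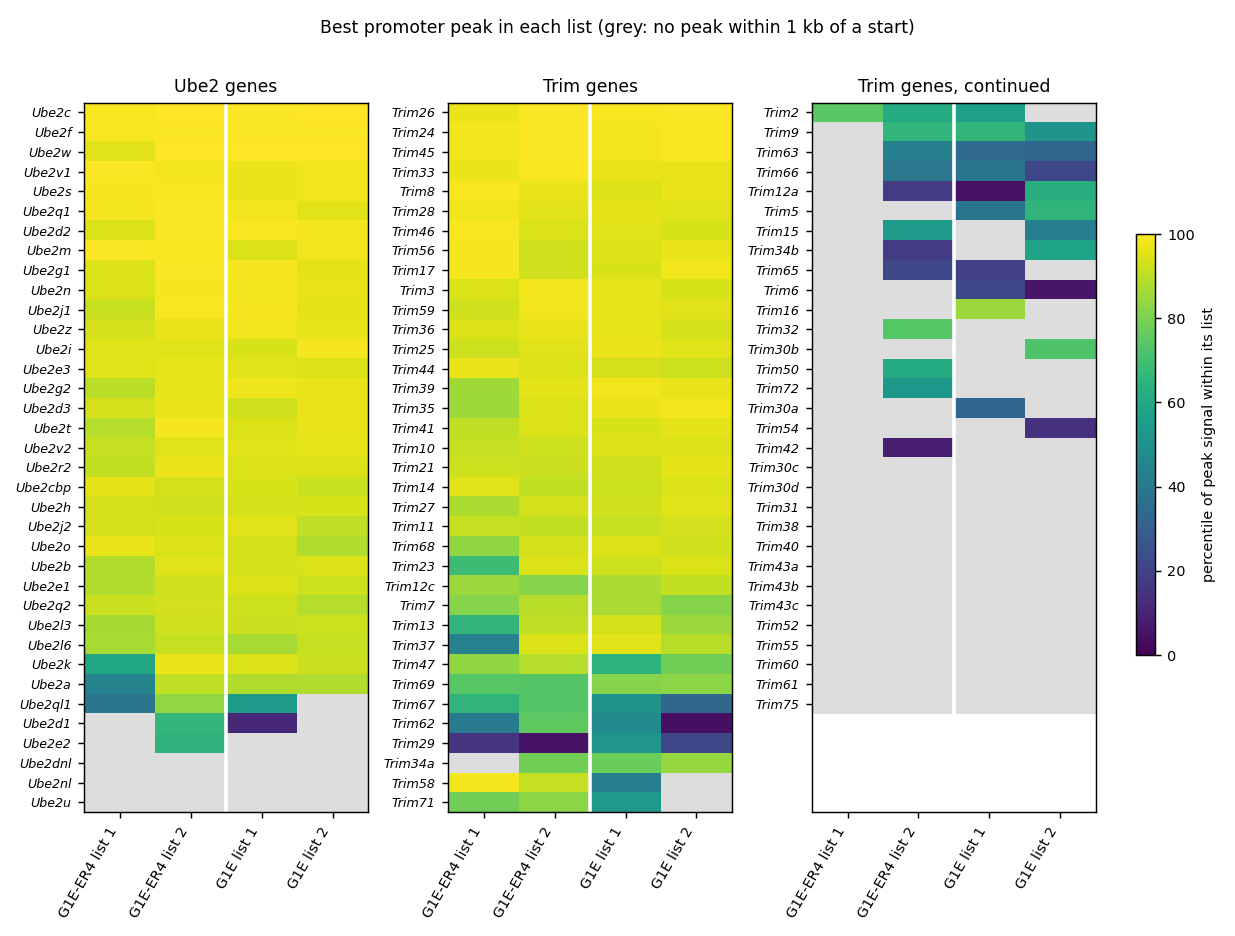
Percentile of the best promoter peak of each of the 36 Ube2 and 67 Trim genes (rows) in the 2 G1E-ER4 and 2 G1E lists (columns), with grey where a list had no peak within 1 kb of a start. Genes are ordered by the number of lists with a peak and then by mean percentile; the 30 Ube2 and 33 Trim genes open in every list stand at the top of their family, and 16 genes are grey throughout.

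CpG content of the start region differed between the families and moved with the share of open promoters. The ratio of observed to expected CpG over the stretch from 250 bases before to 50 after the outermost start had a median of 0.833 in Ube2 genes and 0.390 in Trim genes, against 0.536 in all genes. A ratio of at least 0.6 was found at 24 of 36 Ube2 starts and at 21 of 67 Trim starts. Within that class 22 of 24 Ube2 genes (91.7%) and 18 of 21 Trim genes (85.7%) were open in all 4 lists, against 82.3% of all genes in it. Under a ratio of 0.6 the counts were 8 of 12 Ube2 genes (66.7%, 39.1 to 86.2%) and 15 of 46 Trim genes (32.6%, 20.9 to 47.0%), against 27.9% of all genes. Within each class the interval of the Trim genes held the share of all genes. The part of CpG content in the difference between the families was not tested beyond this division. The ratio was taken at the outermost start alone, whereas a promoter peak could lie at any annotated start.

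**Figure D2:**
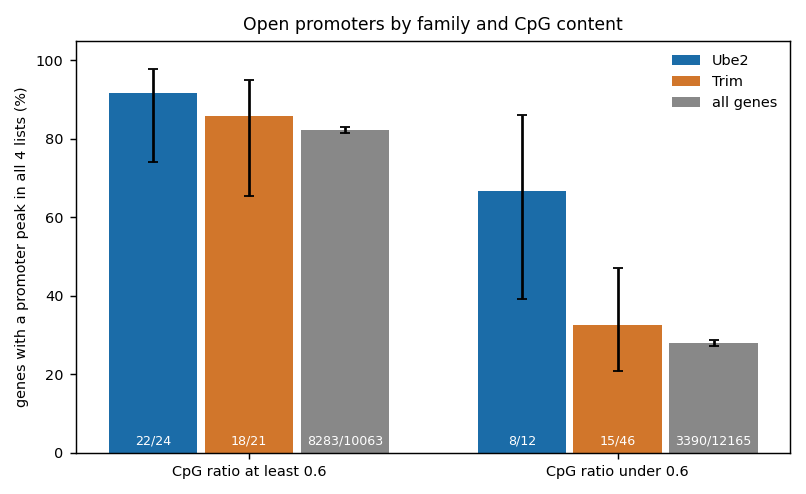
Share of genes with a promoter peak in all 4 lists (%, bars from 0, with 95% Wilson intervals and counts inside the bars), for Ube2 genes, Trim genes and all protein-coding genes, divided by the CpG ratio at the outermost start. Trim genes with a ratio of at least 0.6 were open in 18 of 21 cases and those under 0.6 in 15 of 46.

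Among the E2 enzymes, most genes for general functions were open in every list. All 3 genes of the cell cycle and DNA repair group had a promoter peak in every list: Ube2c and Ube2s, which start and extend the chains built by the anaphase-promoting complex, and Ube2t, which acts in the Fanconi anaemia repair pathway. So did all 5 of the Rad6 and Lys63 chain group, all 3 that serve protein removal at the endoplasmic reticulum and all 4 that carry ubiquitin-like proteins. Of the 18 general ubiquitin E2 genes 15 did, Ube2g2 being counted in this group and in that of the endoplasmic reticulum. Ube2cbp also had a promoter peak in every list and was placed in none of these groups. The highest mean promoter percentiles of the family were those of Ube2c (99.5), Ube2f, an E2 for Nedd8 (99.4), Ube2w, which ubiquitinates protein N-termini (98.7), Ube2v1, the partner of Ube2n in Lys63 chains (98.1), and Ube2s (98.1). The promoter of Ube2c ranked at 99.0 and 99.9 in G1E-ER4 lists 1 and 2 and at 99.4 and 99.8 in G1E lists 1 and 2. At the other end of the 30 stood Ube2a, a Rad6 gene (77.7), Ube2k, which builds Lys48 chains (85.7), Ube2l6 (89.2), Ube2l3, the E2 of the ligase Parkin (90.9), and Ube2q2 (91.7). G1E-ER4 list 1 lowered the means of Ube2a and Ube2k. Ube2a had 44.6 and 90.3 in the G1E-ER4 lists, against 88.0 and 88.0 in the G1E lists. Ube2k had 59.7 and 97.0 in the G1E-ER4 lists, against 94.2 and 92.0 in the G1E lists. Outside that list Ube2a was still below the family medians, which were 96.3 in G1E-ER4 list 2 and 94.8 and 95.9 in the G1E lists.

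The 6 Ube2 genes outside this set were 3 with a promoter peak in some lists and 3 with none. Ube2d1, a broadly acting E2 and close relative of Ube2d2 and Ube2d3, had 66.4 in G1E-ER4 list 2 and 11 in G1E list 1. Its relatives were open in every list, with 94.7 and 99.5 for Ube2d2 and 93.5 and 96.8 for Ube2d3 in the G1E-ER4 lists, against 98.9 and 98.2 for Ube2d2 and 92.9 and 96.6 for Ube2d3 in the G1E lists. Ube2e2 showed a peak in G1E-ER4 list 2 (65.0) and in no other list, while Ube2e1 and Ube2e3 were open in all 4. Ube2ql1 had 39.2 and 83.9 in the G1E-ER4 lists and 55.1 in G1E list 1. Ube2dnl, Ube2nl and Ube2u had no promoter peak, and Ube2dnl and Ube2nl had no peak within 10 kb of the gene either.

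Trim genes were grouped by their domains. The PHD-bromodomain genes act as chromatin co-regulators, and 3 of these 4 were open in every list. Trim24 had a mean percentile of 98.6. Trim33 (97.3), which is needed for red cell formation in zebrafish, ranked at 97.0 and 98.9 in the G1E-ER4 lists, against 96.5 and 96.8 in the G1E lists. Trim28, the co-repressor of zinc finger proteins, ranked at 97.9 and 95.5 in the G1E-ER4 lists, against 95.8 and 95.0 in the G1E lists. Trim66, the last of them, had 39.5 in G1E-ER4 list 2 and 39.3 and 21.3 in the G1E lists. All 5 genes with a single other domain were open (Trim13, Trim23, Trim37, Trim45 and Trim59), as were 17 of 38 with a SPRY domain, 3 of 8 with the COS box that binds microtubules, 1 of 4 with NHL repeats and 4 of 8 with no further domain or no RING. Highest in the family, beside Trim24 and Trim33, were Trim26 (98.7), Trim45 (98.5) and Trim8 (96.8). Lowest among the 33 were Trim29 (23.3), Trim62 (42.0), Trim67 (55.8), Trim69 (78.0) and Trim47 (78.8). The promoter of Trim62 ranked at 41.2 and 75.3 in the G1E-ER4 lists, against 47.3 and 4.05 in the G1E lists, a spread within each state wider than that between them.

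Some Trim genes chosen here after their values were seen, for what is known of them in muscle or nerve, ranged widely. Trim63, the muscle atrophy ligase MuRF1, had 43.5 in G1E-ER4 list 2 and 35.0 and 33.0 in the G1E lists, its muscle relative Trim54 had 14.3 in G1E list 2 alone, and Trim55 had no promoter peak. Trim72, which serves membrane repair in muscle, had 53.3 in G1E-ER4 list 2 alone. The neuronal gene Trim9 had 66.0 in G1E-ER4 list 2 and 65.6 and 51.9 in the G1E lists, whereas Trim46, which organises the axon's start, had 99.2 and 94.5 in the G1E-ER4 lists, against 95.5 and 94.1 in the G1E lists. Of the NHL genes Trim71, an embryonic regulator of RNAs, had 78.3 and 82.6 in the G1E-ER4 lists and 53.9 in G1E list 1. Trim71 lies in a stretch of 10 Mb in which the G1E-ER4 lists held more peaks than the G1E lists (log2 ratio 1.03), and Trim9 in one where they held fewer (log2 ratio -1.01). The part of these stretches in the values of those genes was not tested.

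Several antiviral Trim genes lie side by side. Of the 24 Trim genes with another Trim gene within 100 kb, 8 were open in all 4 lists (33.3%, 18 to 53.3%), against 25 of the 43 without one (58.1%, 43.3 to 71.6%), and these intervals overlap. On chromosome 7, where the relatives of the retrovirus restriction factor Trim5 lie side by side, 1 of 10 was open, Trim12c, with 84.9 and 81.7 in the G1E-ER4 lists, against 87.8 and 91.0 in the G1E lists. The groups on chromosomes 17 and 11 had 2 of 5 and 5 of 6 open. Sequence repetition varied within the chromosome 7 group. The share of 20-base words found more than once in the genome was 73.0% at Trim5, 64.2% at Trim30a, 56.7% at Trim12a, 47.1% at Trim12c, 45.3% at Trim34b and 44.2% at Trim34a. It was 32.1% at Trim30b, 30.7% at Trim30d, 18.2% at Trim6 and 9.03% at Trim30c, which had no peak in or within 10 kb of the gene. The median over Trim genes was 9.07%, that over Ube2 genes 11.9% and that over every 20th protein-coding gene 10.1%. Reads were 20 bases long, and those with several matches were kept at 1 best place, so Trim5, Trim30a and Trim12a, over 50%, and the Trim43a, Trim43b and Trim43c genes (82.6, 83.5 and 83.1%) are uncertain. A share over 50% was not particular to Trim genes. It was found at 6 of 67 Trim genes, at 0 of 36 Ube2 genes and at 110 of the 1112 genes taken as every 20th. None of the 3 Trim43 genes had a promoter peak.

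Few members had a promoter open in 1 state only. No member had a promoter peak in the pair of G1E-ER4 lists and none in G1E, against 1.17% of all genes. In G1E only there were 2, against 0.801% of all genes: Trim5, with 38.8 and 65.5 in the G1E lists, and Trim6, with 21.7 and 5.87. Both belong to the chromosome 7 group, both peaks were of low to middle rank, and Trim5, unlike Trim6, is among the genes with over 50% of repeated words. With 1 list left out the requirement is looser: there were 5 promoters of G1E-ER4 only without G1E-ER4 list 1 and 4 without G1E list 1, and 7 of G1E only without G1E-ER4 list 2 and 4 without G1E list 1 or list 2.

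Promoter percentiles of the states did not overlap at 22 of the 63 members with a promoter peak in every list, 11 in each direction. Some of these were almost tied, such as Ube2h (gap -0.0225) and Ube2q1 (gap 0.057). Those 63 were chosen by having a peak in every list, so they leave out any promoter lost in a state. Both G1E-ER4 lists ranked above both G1E lists at 11 promoters (17.5%, against 15.8% of all genes) and below both at 11 (17.5%, against 13.1% of all genes). Ube2 genes were higher at 6 and lower at 3 of 30, and Trim genes higher at 5 and lower at 8 of 33. Trim genes with a SPRY domain were lower at 7 of 17 (41.2%, 21.6 to 64.0%) and higher at 1. The 7 were Trim10, Trim11, Trim12c, Trim21, Trim35, Trim39 and Trim69, with differences between -1.29 points at Trim11 and -8.64 points at Trim69. Out of several Trim domain groups, only this one is counted here by direction. The gap at Trim21 was -0.469. At Trim35 and Trim39 G1E-ER4 list 1 was lowest, with 85.4 and 85.6, against 94.7 and 95.9 in G1E-ER4 list 2. For the members as a whole the shares are near those of all genes. The counts rest on both G1E-ER4 lists: without G1E-ER4 list 1 there were 36 higher and 14 lower, and without G1E-ER4 list 2 there were 17 higher and 38 lower. Without G1E list 1 there were 19 higher and 17 lower, and without G1E list 2 there were 17 higher and 18 lower. The median difference was -0.696 percentile points for Ube2 genes, -0.523 for Trim genes and -0.619 for all genes. Single promoters ranged on both sides of these medians, between -26.8 points at Trim29 and 32.6 points at Trim62.

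Among promoters whose states did not overlap, Trim67 and Trim29 differed most. Trim67, a neuronal relative of Trim9, had 65.3 and 73.3 in the G1E-ER4 lists, against 51.2 and 33.4 in the G1E lists, a difference of 27.0 points. The Trim67 order is lost when the summit has to lie inside the window. Trim47 had 83.5 and 88.8 in the G1E-ER4 lists, against 64.7 and 78.2 in the G1E lists (difference 14.7). Next came Ube2o (4.71), Trim44 (3.04) and the Nedd8 enzyme Ube2m (2.80). Lower in G1E-ER4 were Trim29, with 14.9 and 4.93 in the G1E-ER4 lists, against 52.1 and 21.3 in the G1E lists (difference -26.8), and Trim69, with 74.2 and 73.2 in the G1E-ER4 lists, against 82.0 and 82.7 in the G1E lists (difference -8.64). Trim35 (-7.51), Trim39 (-6.39) and Trim12c (-6.09) followed. At Trim13, Trim23, Trim37, Trim39, Ube2a and Ube2k G1E-ER4 list 1 was at least 10 points below the other 3 lists. Trim37, for instance, had 44.3 and 94.5 in the G1E-ER4 lists, against 95.7 and 89.1 in the G1E lists, and its states overlapped. The states also overlapped at Trim62 (difference 32.6), the largest difference of the 63, and at Ube2a (-20.6) and Ube2k (-14.8). Other single lists stood apart as well. G1E list 2 was at least 10 points below the other 3 lists at Trim62 and Trim67, and G1E list 1 was so at Trim47. At least 10 points above the other 3 were G1E list 1 at Trim29 and G1E-ER4 list 2 at Trim62. The largest differences thus rest in part on 1 list.

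**Figure D3:**
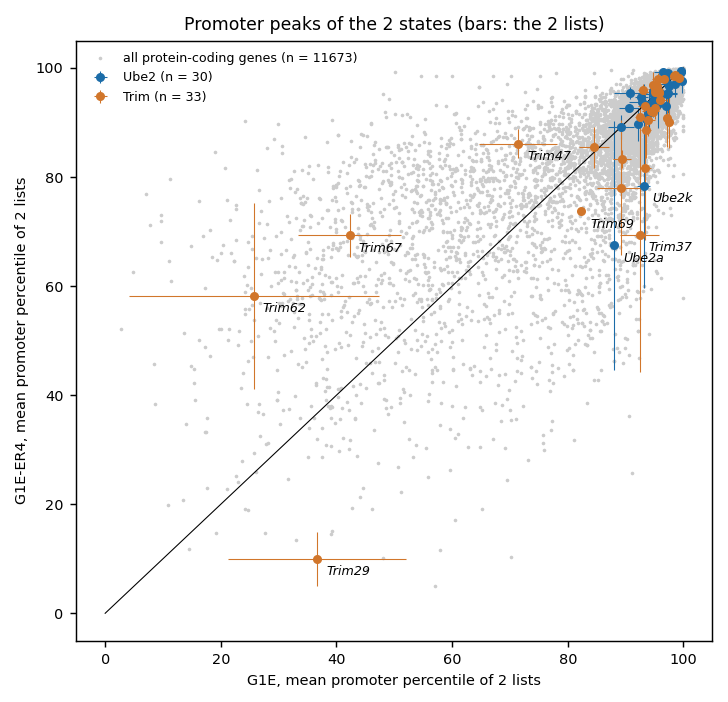
Mean promoter percentile of the 2 G1E-ER4 lists (vertical) against that of the 2 G1E lists (horizontal) for the 30 Ube2 and 33 Trim genes with a promoter peak in every list, with bars that reach the 2 lists of a state, over the 11673 such protein-coding genes in grey. Most members lie near the diagonal at the top right; Trim67 and Trim47 stand above it and Trim29 below, while the long vertical bars of Ube2a, Ube2k and Trim37 show the low value of G1E-ER4 list 1.

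Of the 5 erythroid genes, 4 had a promoter peak in every list, with differences between -2.97 points at Trim10 and 4.71 points at Ube2o, and Trim58 did not. Ube2o ranked at 96.6 and 94.4 in the G1E-ER4 lists, against 93.7 and 87.9 in the G1E lists. The summit of its peak in G1E-ER4 list 1 lay 1.23 kb inside the gene, and when only peaks with their summit inside the window count, the difference changes to -2.47. Ube2h had 93.6 and 92.8 in the G1E-ER4 lists, against 93.7 and 94.0 in the G1E lists, a difference of -0.624 points with no overlap. Ube2l6 had 86.9 and 91.4 in the G1E-ER4 lists, against 87.0 and 91.4 in the G1E lists, and these overlapped. Trim10 had 91.4 and 92.3 in the G1E-ER4 lists, against 94.9 and 94.7 in the G1E lists, lower in both G1E-ER4 lists (gap -2.46), and its start region was poor in CpG (ratio 0.0918).

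At Trim58 the peak that reached the start window ranked far higher in G1E-ER4. Its window held a peak of percentile 98.3 and 91.4 in the G1E-ER4 lists, one of 42.8 in G1E list 1 and none in G1E list 2. In both G1E-ER4 lists that peak was wide, and its summit lay at 1.32 kb inside the gene, in the intron shown above. A peak with its summit at most 100 bp away was present in the G1E lists too, as a narrower peak that began outside the window. Compared summit to summit, the site ranked at 98.3 and 91.4 in the G1E-ER4 lists, against 70.1 and 50.4 in the G1E lists. A second Trim58 site, at -3.66 kb from the start, ranked at 90.5 and 81.5 in the G1E-ER4 lists, against 73.9 and 72.5 in the G1E lists. Both sites were thus open in each state and of higher rank in G1E-ER4. A peak with its summit at 3.12 to 3.18 kb ranked at 78.6 in G1E-ER4 list 1, against 80.1 and 85.6 in the G1E lists. G1E-ER4 list 2 had no separate peak there, as its wide peak ran to 3497 bp after the start. With overlapping peaks of all lists merged, G1E-ER4 was higher at 2 of 2 Trim58 regions present in all 4 lists. A gap of at least 10 points was found at 0 of these 2.

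**Figure D4:**
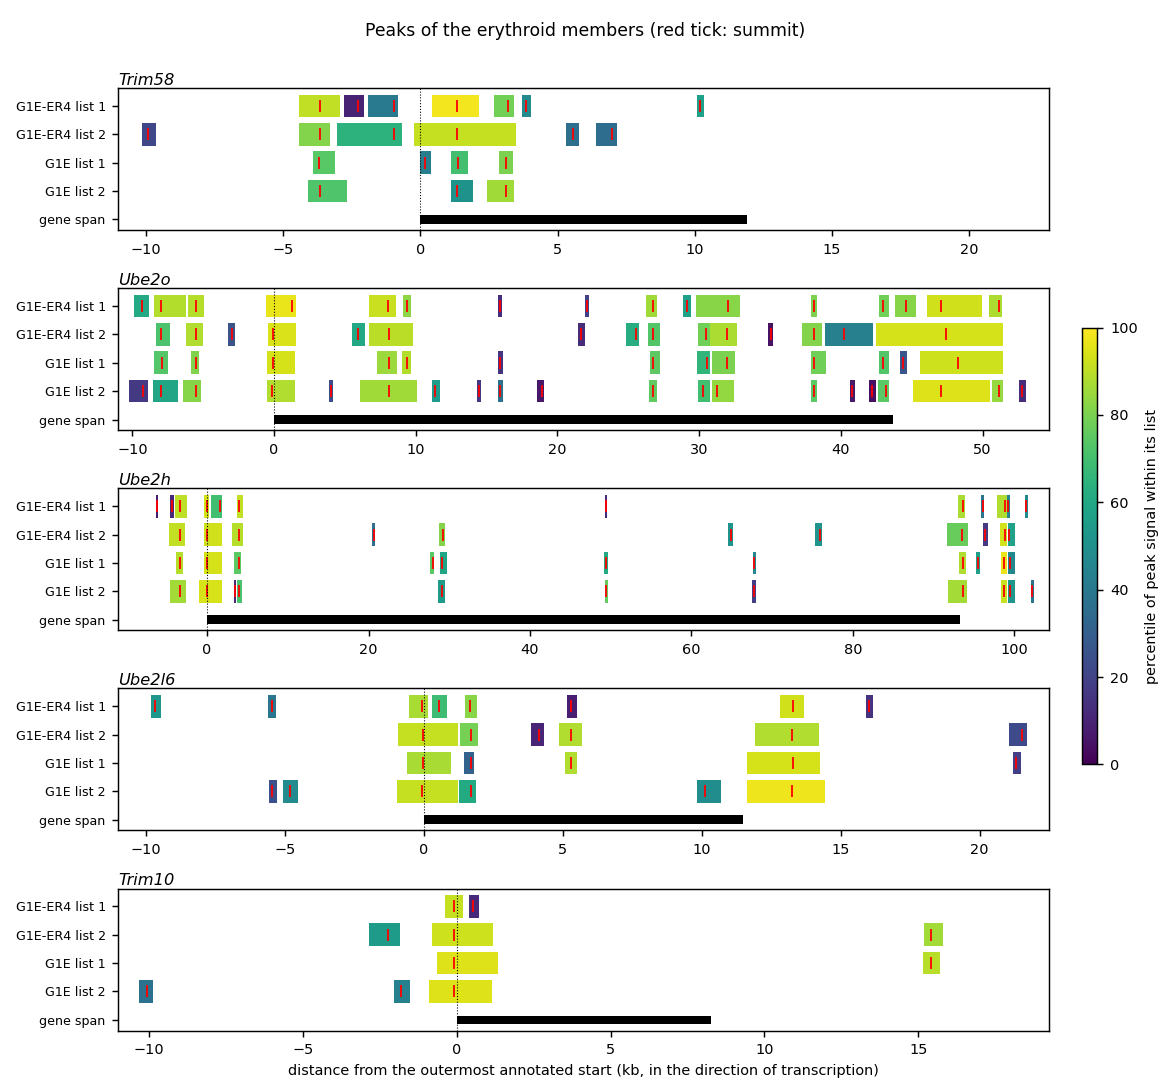
Peaks of each list in and within 10 kb of Trim58, Ube2o, Ube2h, Ube2l6 and Trim10, drawn to scale against the distance from the outermost start (kb, in the direction of transcription) and coloured by percentile, with red ticks at the summits and the gene span in black. At Trim58 the peak with its summit at 1.32 kb is wide and yellow in the G1E-ER4 lists (98.3 and 91.4) and narrow and of lower rank in the G1E lists (70.1 and 50.4).

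Matching summits in this way, an analysis added after the Trim58 values were seen, gave 19895 sites over the genome with exactly 1 peak of each list and all summits within chains of at most 100 bp between neighbours. Of these, 129 lay within a member gene or 10 kb of it. Both G1E-ER4 lists ranked higher at 31 of the 129 (24.0%, against 17.1% of all sites) and lower at 15 (11.6%, against 15.9%). A gap of at least 10 points was found at 6 member sites in favour of G1E-ER4 (4.65%, against 2.54% of all sites) and at 2 the other way (1.55%, against 2.68%). These counts also grow when a state rests on 1 list, to 14 higher and 13 lower without G1E-ER4 list 1, to 22 and 13 without G1E-ER4 list 2, to 10 higher without G1E list 1 and to 17 higher without G1E list 2. Away from promoters, Ube2 sites were higher in G1E-ER4 at 10 of 25 (40.0%) and Trim sites at 8 of 36 (22.2%), against 20.2% of all such sites. The 5 erythroid genes had 16 matched sites, with G1E-ER4 higher at 8 and lower at 3, and they supplied 3 of the 6 sites with a gap of at least 10 points. Those genes were chosen for their known role in red cells, but with earlier results of these data known. The matching was also added after the values of Trim58, which is among them, were seen. The counts of the erythroid genes are thus a description and not an independent test.

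The 3 matched erythroid sites with a gap of at least 10 points were the Trim58 intron, the Ube2l6 intron and the Ube2h intron at 4.0 kb. The Ube2l6 site had 82.1 and 79.0 in the G1E-ER4 lists, against 30.9 and 60.7 in the G1E lists (gap 18.3), while the Ube2l6 promoter did not differ. The Ube2h site had 90.9 and 88.9 in the G1E-ER4 lists, against 74.9 and 71.4 in the G1E lists (gap 14.0). At Ube2o 3 of 5 matched sites were higher in G1E-ER4, by less: the upstream site, nearest to a start of Aanat, had 88.8 and 87.9 in the G1E-ER4 lists, against 80.9 and 81.9 in the G1E lists (gap 5.97), and an intron site at 8.09 kb had 91.7 and 89.6 in the G1E-ER4 lists, against 85.1 and 85.9 in the G1E lists (gap 3.66). The single matched site of Trim10 was its promoter.

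Ube2c carried 2 of the other 3. Its upstream site ranked at 88.2 and 82.2 in the G1E-ER4 lists, against 41.3 and 59.1 in the G1E lists (gap 23.2, the widest of the 129), and it lay 7.55 kb from a start of Dnttip1, nearer than to Ube2c. Its intron site ranked at 98.2 and 89.0 in the G1E-ER4 lists, against 54.9 and 70.5 in the G1E lists (gap 18.5), while the Ube2c promoter stayed above the 99th percentile in 3 lists and at 99.0 in G1E-ER4 list 1. In the 10 Mb stretch around Ube2c the G1E-ER4 lists held more peaks than the G1E lists (log2 ratio 0.48), against log2 ratios of 0.03 at Ube2l6, 0.22 at Ube2h and 0.01 at Trim58. The part of that stretch in the Ube2c values was not tested. The last was a site 17.1 kb after the start of Trim31, outside the gene, with 80.7 and 62.7 in the G1E-ER4 lists, against 45.4 and 36.7 in the G1E lists.

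The 2 sites lower in G1E-ER4 lay outside Trim genes. A site 30.4 kb after the start of Trim62 had 36.6 and 64.5 in the G1E-ER4 lists, against 83.6 and 82.4 in the G1E lists. A site at -5.59 kb from the start of Trim25, the ligase that activates the viral RNA sensor RIG-I, had 65.3 and 54.1 in the G1E-ER4 lists, against 82.6 and 81.1 in the G1E lists. The Trim25 promoter ranked at 92.5 and 95.6 in the G1E-ER4 lists, against 96.9 and 95.1 in the G1E lists, and there the states overlapped.

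**Figure D5:**
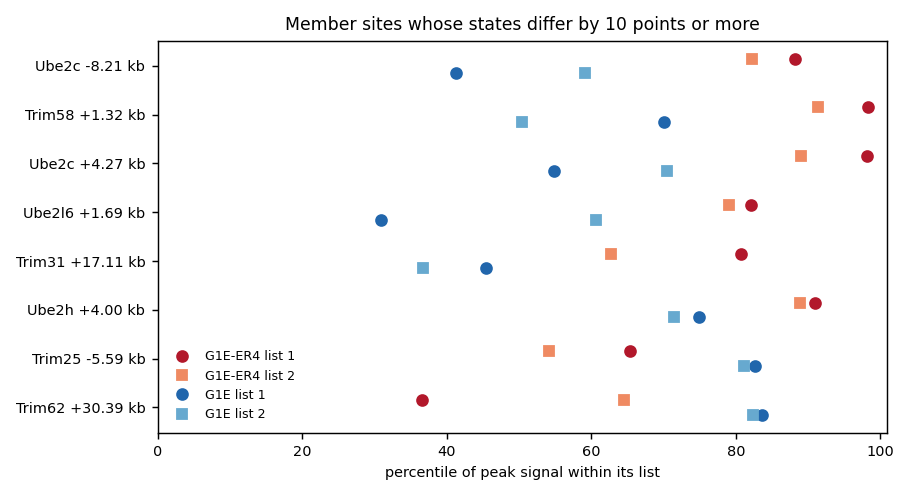
Percentile of the peak in each list (horizontal) at the 8 member sites whose states are at least 10 points apart, named by gene and distance from its outermost start, with the G1E-ER4 lists in red tones above the G1E lists in blue. The upper 6 sites have both G1E-ER4 lists to the right of both G1E lists, and the Trim25 and Trim62 sites have them to the left.

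GATA letters were found within 100 bases of the summit at 11 of 25 Ube2 sites away from promoters (44.0%), at 7 of 36 Trim sites (19.4%) and at 35.9% of all matched sites away from promoters. At promoter sites the counts were 3 of 36 for Ube2 genes and 3 of 34 for Trim genes, against 11.1% of all. Over the genome the match was about as frequent at the sites away from promoters that were at least 10 points higher in G1E-ER4 (48.1% of 457) as at those at least 10 points lower (46.1% of 514). A match of these letters is a description of the sequence.

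Regions present in 1 state only were few around the members, and mostly weak. After peaks of all lists that overlapped were merged, 799 regions met a member gene or its 10 kb flanks, and 186 of them held all 4 lists. Regions found in both lists of G1E-ER4 and absent from G1E numbered 16 (2.0%, against 2.35% of all merged regions), and those found in both lists of G1E and absent from G1E-ER4 numbered 28 (3.5%, against 3.99%). At least 1 G1E-ER4-only region was found at 14 of 103 members (13.6%, against 15.7% of all genes), and at least 1 G1E-only region at 23 (22.3%, against 20.2%). Ube2 genes had 6 of each kind, and Trim genes 10 in G1E-ER4 and 22 in G1E. Left with 3 lists, the G1E-ER4-only regions numbered 119 without G1E-ER4 list 1, 175 without G1E-ER4 list 2, 27 without G1E list 1 and 29 without G1E list 2. The G1E-only regions then numbered 43, 56, 136 and 113 in the same order of lists. Trim45 and Trim62 had 2 G1E-ER4-only regions each and no other member had more than 1, and the Trim62 regions were of low rank (4.20 and 17.9 in one, 24.7 and 57.9 in the other). Ube2c had 1, 18.8 kb after its start and within 1 kb of a start of Snx21, at 55.4 and 56.4.

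Trim63 held the most G1E-only regions, 4. They were chr4:133870012-133871131 at a start (35.0 and 33.0 in the G1E lists), chr4:133873598-133874491 in an intron (60.6 and 18.5), chr4:133882980-133884413 over an exon (40.1 and 68.2) and chr4:133884474-133885457 over an exon (74.4 and 78.6). The last ranked highest of all 44 one-state regions, whose other means reached at most 65.5. Trim33 had 3, at 23.1 and 67.7, 40.1 and 70.0, and 70.2 and 60.8 in the G1E lists, although its promoter ranked slightly higher in G1E-ER4. Trim24, Trim30a, Trim34a and Trim67 had 2 each. Both regions of Trim34a are the promoters of its neighbours Trim5 and Trim12a, in the chromosome 7 group. No peak of any list lay within 10 kb of Trim30c, Trim52, Ube2dnl and Ube2nl.

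Most other genes of the pathway were open in both states. Of 11 genes for E1 activating enzymes in the annotation 10 were open in every list, the exception being Ube1y1 on the Y chromosome. Uba1, the main ubiquitin E1, had 94.2 and 88.8 in the G1E-ER4 lists, against 87.4 and 83.6 in the G1E lists, and Sae1, a subunit of the Sumo E1, was higher too. Uba3, a subunit of the Nedd8 E1, was among those lower in G1E-ER4. All 7 E2 genes with other names were open, and none had states that did not overlap. Of 11 genes for ubiquitin and ubiquitin-like proteins 10 were open. Ufm1 was among those higher and Sumo3 among those lower in G1E-ER4. The gene not open in every list was Isg15, the interferon-induced protein that Ube2l6 attaches, with a peak in G1E-ER4 list 1 alone (11). Of 8 relatives of the Trim genes without a Trim number, 2 were open, Pml and Rnf207.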

How the data were processed

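Nuclei received DNase I at several concentrations, per the series design text; 20-base reads were aligned to mm9 with Bowtie, multi-mapping reads were assigned to 1 best place, lanes were pooled per replicate and converted with SAMtools, and F-seq density peaks were called by a gamma fit. The sources used here give no versions, read numbers or threshold. The authors deposited each peak's signal, with score 0 and p and q columns of -1. Equal list lengths of 100000 mean that weak peaks compete for places, and short reads limit repeated sequence.

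Peaks were ranked within each list (percentile), placed on GENCODE vM1 genes (22367 records, 22228 after 139 records sharing a symbol were joined), and merged at 1 bp of overlap, with Python 3.11.15, pandas 2.3.3 and pysam 0.24.0. The steps recovered 100% of 1600 simulated promoter patterns. The labels' cell field set the groups, and no test was made. Named genes are the erythroid genes, per family the 5 highest and, added after their values were seen, the 5 lowest promoters, the one-state promoters, the 5 largest differences and most one-state regions per direction, genes with no peak, and examples of role groups, some of which were also chosen after their values were seen. Members and lists were chosen with earlier results of these data known. Values of some genes of the pathway lists are not reported here.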

Additional observations from a re-analysis of the deposited data

How the results depend on the processing

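With the other promoter windows (500 and 2000 bp), the summit rule, the top 50% of each list, the outermost start alone and each list left out, Ube2 genes open in every list numbered 29 to 31 and Trim genes 29 to 38. With the other windows and the summit rule, the family medians were 95.1 to 95.3 for Ube2 genes and 91.7 to 92.2 for Trim genes. Promoters of 1 state moved from 0 in G1E-ER4 to 1 with 2000 bp (Trim50) and 1 in the top 50% (Trim58), and from 2 in G1E to 0 in the top 50%. Leaving out a list lowers what is asked of a state, so counts grew: 0 to 5 G1E-ER4-only and 2 to 7 G1E-only promoters, 17 to 36 promoters higher and 14 to 38 lower in G1E-ER4, 27 to 175 G1E-ER4-only and 43 to 136 G1E-only regions, and 10 to 22 matched sites higher and 2 to 13 lower by at least 10 points. Under the summit rule 7 promoters were higher, with Trim67, Trim8, Ube2v1 and Ube2o lost, and the Ube2o difference of 4.71 became -2.47. One-state regions numbered 8 in G1E-ER4 with no flank, 38 and 69 with 50000 bp, and 10 and 11 in the top 50%. Sites with a gap of at least 5 points, chosen after seeing the data, numbered 12 higher. Summits within 50 or 200 bp and merged regions, also chosen after seeing the data, gave 6 to 8 higher and 2 to 3 lower. Ranked only among peaks outside promoters, a choice also made after seeing the data, the Trim58 intron had 99.2 and 98.4 in G1E-ER4, against 76.3 and 54.8 in G1E. No paired analysis was possible because each state is 1 sample and the numbers of its lists come from file names alone. Read depth is unknown, so weak peaks missing from a list may be open.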
